A study of Arabidopsis thaliana and Boechera depauperata with 12 samples.

Results

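The genes described here were 8 nuclear genes of *A. thaliana* for alternative respiration and for the signalling that reports mitochondrial stress to the nucleus. They were taken by gene identifier from a counts table of 33977 genes. They comprised 3 alternative oxidases (*AOX1A*, AT3G22370; *AOX1C*, AT3G27620; *AOX1D*, AT1G32350), the type II NAD(P)H dehydrogenase *NDB2* (AT4G05020), the oxidative stress gene *UPOX* (AT2G21640), the uncoupling protein *PUMP1* (AT3G54110) and the transcription factors *ANAC013* (AT1G32870) and *ANAC017* (AT1G34190). The series compared RNA-seq libraries of *A. thaliana* and of *Boechera depauperata*, a related mustard, under heat stress. In *A. thaliana*, libraries W5 and W6 came from plants given an acquired heat stress (A/HS), which was 1 h at 38 °C, 1 h of recovery at 22 °C and then 3 h at 43 °C. Libraries W3 and W4 came from plants given a basal heat stress (B/HS) of 3 h at 38 °C, and libraries W1 and W2 from control plants at 22 °C. A/HS differed from B/HS in both the pretreatment and the final temperature, and their parts cannot be told apart.

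Alternative oxidase passes electrons from ubiquinol straight to oxygen, so that the respiratory chain can run past complexes III and IV without pumping protons there. Type II dehydrogenases such as NDB2 feed NADH from the cytosolic side into the same ubiquinone pool without pumping protons, and uncoupling proteins let protons back across the inner membrane. When mitochondria are disturbed, membrane-tethered NAC transcription factors such as ANAC013 and ANAC017 are released from the endoplasmic reticulum, enter the nucleus and bind a sequence called the mitochondrial dysfunction motif. *AOX1A* and *UPOX* are the usual reporter genes of this response.

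The motif was searched on both strands as CTTGNNNNNCAAG or CTTGNNNNNCACG, where N is any base, in the 250 bases before and the first 50 bases of each annotated gene (RefSeq annotation, assembly TAIR10.1). It was present in 391 of 27444 such windows of protein-coding genes (1.42 %) and in 4 of the 8 genes described here, which were *AOX1A*, *NDB2*, *UPOX* and *ANAC017*. The 5 matches are shown because 3 of these 4 genes changed with heat and because *UPOX* and *AOX1A* carry the same bases. The 8 genes were chosen for their known part in mitochondrial stress, with earlier results of these data known, and *AOX1A* and *UPOX* are usual reporters of this stress. The share with a match is thus a description and was not tested. The 250 bases before *AOX1A* held no full match, so its matches depended on adding the first 50 bases of the gene. Each line runs 5′ to 3′ on the strand of the gene, with the 13 bases of the motif in capitals and 5 bases on either side.
UPOX, chr2:9254322-9254344, plus strand: agtaaCTTGCTCTCCAAGgagat
AOX1A, chr3:7906540-7906562, plus strand: tccatCTTGCTCTCCAAGaaaaa
AOX1A, chr3:7906513-7906535, plus strand: tagctCTTGGCGACCACGcaagt
NDB2, chr4:2572343-2572365, plus strand: tctggCTTGGCCACCAAGattgt
ANAC017, chr1:12451290-12451312, plus strand: tctgtCGTGTCAGACAAGaatgt

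The *UPOX* motif began 51 bases before the annotated gene start. The same 13 bases stood in *AOX1A* from base 25 of the transcribed part. They occurred in 5 of the 27444 windows, those of *UPOX* and *AOX1A* included. The sequence counted was taken from the *UPOX* match itself, so this number is a description. *AOX1A* held another match that began 3 bases before its start and ran across it. The *NDB2* match began 79 bases and the *ANAC017* match 110 bases before the start. The neighbour *ANAC016*, on the same strand, ends at base 12451287 of chromosome 1. The window of *ANAC017*, from base 12451155, thus overlapped the transcribed part of *ANAC016*, and its match began just past that end, at base 12451295. The window of *ANAC013* held no match, and neither did those of *AOX1C*, *AOX1D* and *PUMP1*. The annotated start of *ANAC013* lies only 6 bases before its start codon, against 112 to 607 bases in the other genes. Its window thus reached into coding sequence and is not placed like the others. The 250 bases before *UPOX* and *NDB2* are given in full, since these are the genes whose match lay in the upstream stretch and whose counts changed.
UPOX, chr2:9254128-9254377, plus strand: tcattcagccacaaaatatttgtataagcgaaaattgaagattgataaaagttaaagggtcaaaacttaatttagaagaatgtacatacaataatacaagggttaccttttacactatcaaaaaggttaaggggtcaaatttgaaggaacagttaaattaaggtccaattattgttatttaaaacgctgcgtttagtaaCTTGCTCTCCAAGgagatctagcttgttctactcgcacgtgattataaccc
NDB2, chr4:2572177-2572426, plus strand: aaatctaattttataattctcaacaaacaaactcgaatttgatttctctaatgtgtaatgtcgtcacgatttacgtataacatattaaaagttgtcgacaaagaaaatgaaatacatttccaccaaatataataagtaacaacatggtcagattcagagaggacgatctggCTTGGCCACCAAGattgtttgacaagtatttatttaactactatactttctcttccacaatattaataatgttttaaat

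The core of the heat shock element, GAANNTTC or TTCNNGAA (each its own reverse complement), was found in the window of *PUMP1* and in none of the other 7, against 19.3 % of all windows. The W-box TTGAC, which WRKY factors bind, was present in 6 of the 8 windows (all but those of *ANAC013* and *ANAC017*) and in 50.5 % of all. The G-box CACGTG was present in the windows of *UPOX* and *PUMP1* and in 7.68 % of all. None of these matches overlapped a mitochondrial dysfunction motif.

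The 6 libraries held between 11819511 and 15297546 counts. Chloroplast and mitochondrial genes took 58.1 % (W6) to 74.9 % (W1) of them, which left 3235697 (W1) to 5344301 (W4) counts on nuclear genes. The labels give the tissue as root, but the markers went against this. All 8 leaf markers were detected in every library, with summed levels of 4861 and 3494 CPM (counts relative to the TMM-scaled library size) after A/HS, 5903 and 5403 CPM after B/HS and 6718 and 5353 CPM in control. The 11 root markers summed to 9.01 to 25.8 CPM, and 8 of the 11 did not pass the filter on low counts. The 5 heat shock markers were all at least 4-fold higher after both treatments, but their sum in control differed between W1 (637 CPM) and W2 (1309 CPM). The parts that tissue composition and this difference had in the results were not tested. In bulk libraries, fewer cells of a type and less RNA per cell cannot be told apart.

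Of the 8 genes, 7 passed the filter on low counts and *AOX1C* did not. Two-sided *P*-values came from edgeR's quasi-likelihood test over the 17669 genes that passed, with Benjamini–Hochberg adjustment, and a gene was called changed at an adjusted *P* under 0.05. After B/HS, 4 of the 7 tested genes were higher and 0 lower than in control (0 lower also at an unadjusted *P* under 0.05 and with DESeq2), namely *UPOX*, *ANAC013*, *AOX1A* and *NDB2*. Over all tested genes, 20.0 % were higher and 19.7 % lower. After A/HS, 5 of the 7 were higher and 0 lower, the same 4 genes and *AOX1D*, where 18.3 % of all tested genes were higher and 17.6 % lower. *PUMP1* and *ANAC017* passed in neither comparison. With the study's further condition of a 4-fold change, 3 of 7 were called after B/HS (*UPOX*, *ANAC013* and *AOX1A*; 3.76 % of all genes were called higher by this rule) and 2 of 7 after A/HS (*UPOX* and *NDB2*; 2.92 % of all genes). The log2 fold changes of the 7 genes had a median of 1.88 after A/HS and 1.67 after B/HS. Over all tested genes the medians were 0.02 and −0.02. Both comparisons share the control libraries W1 and W2. Because the genes were chosen with earlier results of these data known, their shares beside those of all genes are a description.

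**Figure D1:**
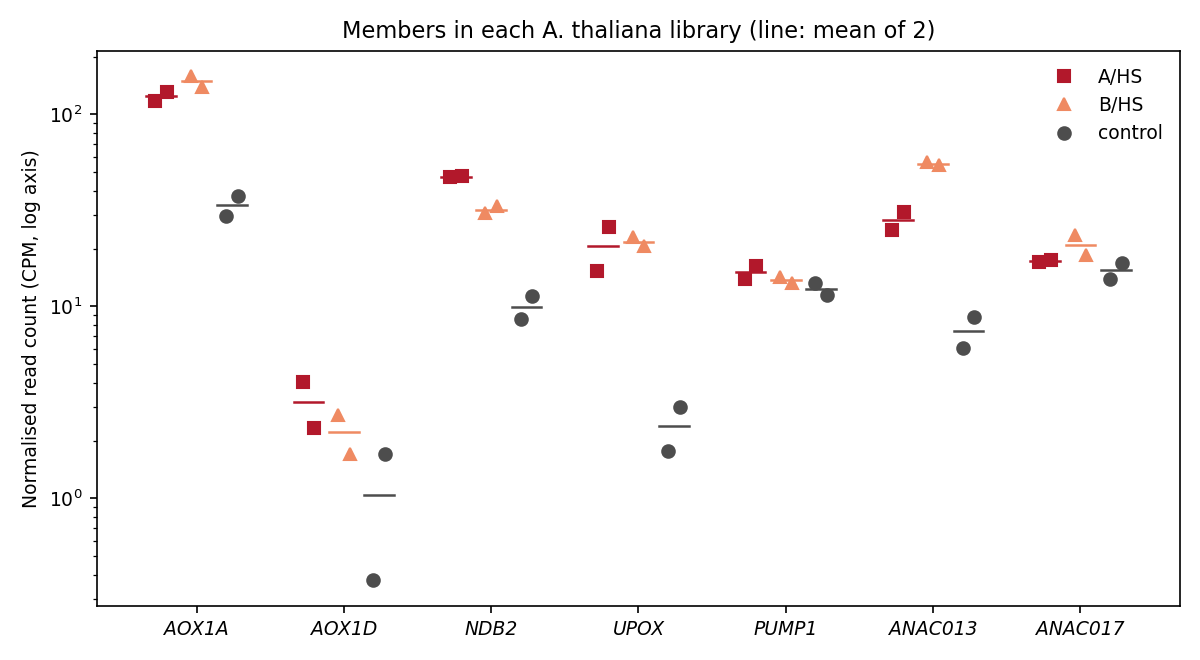
Normalised read counts (CPM, log axis) of the 7 tested genes in the A/HS, B/HS and control libraries of *A. thaliana*, with 1 symbol per library and a line at the mean of 2. For *AOX1A*, *NDB2*, *UPOX* and *ANAC013* all heat-stressed libraries lie well above both control libraries. Those of *PUMP1* and *ANAC017* also lie above both control libraries, but only by a small margin. *AOX1C*, with 0 or 1 count per library, is not drawn.

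*AOX1A* encodes the main stress-induced alternative oxidase and lies on chromosome 3 (7906521 to 7908746, plus strand, 4 exons). It had 118 and 131 CPM after A/HS, 159 and 139 CPM after B/HS, and 29.5 and 37.7 CPM in control. All 4 heat-stressed libraries were well above both control libraries. The fitted level was 3.69-fold that of control after A/HS (log2 fold change 1.88, SE 0.21, edgeR adjusted *P* = 2.32e-05) and 4.41-fold after B/HS (2.14, SE 0.21, adjusted *P* = 6.95e-06). *AOX1A* thus stood on both sides of the 4-fold limit of the study's rule, and its difference between A/HS and B/HS was within the error (log2 −0.26, adjusted *P* = 0.404).

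*AOX1D*, a further stress-related alternative oxidase on chromosome 1 (11666886 to 11668690, minus strand), was counted far less often. It had 58 and 31 counts after A/HS (4.01 and 2.33 CPM), 30 and 22 counts after B/HS (2.73 and 1.70 CPM) and 4 and 29 counts in control (0.373 and 1.71 CPM). As a ratio, the 2 control libraries differed more from each other than control W2 did from any heat-stressed library. The rise after A/HS was 2.81-fold (log2 1.49, SE 0.52, 95 % interval 0.38 to 2.60, edgeR adjusted *P* = 0.0381). It was 0.91 (adjusted *P* = 0.212) without control W1 and 1.03 (adjusted *P* = 0.206) without A/HS library W5, so the call rests on single libraries. After B/HS the log2 fold change was 0.96 with a 95 % interval of −0.21 to 2.13 (adjusted *P* = 0.178), and without control W2 it was 2.49 (adjusted *P* = 0.0211).

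*AOX1C*, on chromosome 3 (10229045 to 10230707, minus strand), had 0 counts in all heat-stressed libraries and 1 count in each control library. A count of 0 allows a level of up to 0.208 and 0.226 CPM in the A/HS libraries and up to 0.273 and 0.232 CPM in the B/HS libraries (3 counts, counting error only). No change could be given at this depth. The other alternative oxidase genes, *AOX1B* and *AOX2*, had 0 counts in all 6 libraries. *AOX1A* therefore supplied 95.5 to 98.8 % of all alternative oxidase counts in each library. The share of *AOX1D* was 3.30 and 1.75 % after A/HS, 1.69 and 1.21 % after B/HS, and 1.25 and 4.32 % in control, and the exact (Clopper-Pearson) 95 % intervals of the control libraries, which cover counting error only, ran from 0.341 to 3.16 % (W1) and from 2.91 to 6.15 % (W2). The shares overlapped between the conditions. The coding sequence of *AOX1A* was identical to that of *AOX1C* at 79.4 % and to that of *AOX1D* at 69.9 % of aligned bases, with no identical run longer than 34 and 13 bases.

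*NDB2* encodes an external NADH dehydrogenase that is often induced together with *AOX1A*, and lies on chromosome 4 (2572427 to 2576599, plus strand, 10 exons). It had 47.3 and 47.7 CPM after A/HS, 30.6 and 33.3 CPM after B/HS, and 8.58 and 11.3 CPM in control. The 3 conditions did not overlap, and the A/HS libraries were the highest. The level was 4.74-fold that of control after A/HS (log2 2.24, SE 0.20, edgeR adjusted *P* = 5.23e-06) and 3.19-fold after B/HS (log2 1.67, SE 0.20, adjusted *P* = 2.94e-05). The coding sequence was identical to that of *NDB3* at 84.5 % of aligned bases with a longest identical run of 37 bases.

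*UPOX*, which encodes a mitochondrial protein and is named for its rise under oxidative stress, lies on chromosome 2 (9254378 to 9255743, plus strand, 3 exons). It showed the largest changes of the 7 genes in both comparisons with control. It had 15.4 and 25.8 CPM after A/HS, 22.9 and 20.6 CPM after B/HS, and 1.77 and 2.999 CPM in control. The lowest heat-stressed library was still several times the higher control. The level was 8.30-fold that of control after A/HS (log2 3.05, SE 0.30, edgeR adjusted *P* = 9.94e-06) and 8.77-fold after B/HS (log2 3.13, SE 0.30, adjusted *P* = 6.27e-06). The 2 A/HS libraries differed more from each other than the B/HS libraries did, and the difference between the treatments was close to 0 (log2 −0.08, adjusted *P* = 0.864).

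*PUMP1*, also called *UCP1*, encodes a carrier of the mitochondrial inner membrane that uncouples respiration (chromosome 3, 20038670 to 20041210, plus strand, 9 exons). It had 13.9 and 16.2 CPM after A/HS, 14.3 and 13.3 CPM after B/HS, and 13.2 and 11.4 CPM in control. All 4 heat-stressed libraries were above the higher control library, by a small margin. The log2 fold change was 0.29 after A/HS (95 % interval −0.12 to 0.71, edgeR adjusted *P* = 0.251) and 0.17 after B/HS (−0.25 to 0.58, adjusted *P* = 0.519), so both intervals lay below a doubling. It shares 85 bases with AT3G54120 on the opposite strand. Whether strand was used in counting is not given in the sources used here, and that neighbour had 1 to 13 counts per library.

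*ANAC013*, a membrane-tethered NAC factor that binds the mitochondrial dysfunction motif, lies on chromosome 1 (11911631 to 11913947, plus strand). It had 25.1 and 31.2 CPM after A/HS, 56.4 and 54.6 CPM after B/HS, and 6.06 and 8.82 CPM in control. The 3 conditions did not overlap, and here the B/HS libraries were the highest. The level was 3.73-fold that of control after A/HS (log2 1.90, SE 0.22, edgeR adjusted *P* = 3.46e-05) and 7.35-fold after B/HS (log2 2.88, SE 0.22, adjusted *P* = 2.52e-06). It shares 20 bases with AT1G32880 on the opposite strand, which had 1 to 24 counts per library against 65 to 705 for *ANAC013*.

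*ANAC017*, the related factor that acts upstream of *ANAC013* and *AOX1A* in this signalling, lies on chromosome 1 (12451405 to 12454542, plus strand). It had 17.0 and 17.5 CPM after A/HS, 23.6 and 18.4 CPM after B/HS, and 13.9 and 16.9 CPM in control. The heat-stressed libraries were all above the controls, but by little. The log2 fold change was 0.16 after A/HS (95 % interval −0.27 to 0.59, edgeR adjusted *P* = 0.570) and 0.44 after B/HS (0.01 to 0.87, adjusted *P* = 0.0942). The ANAC017 protein is known to be activated by release from the membrane, which transcript counts do not measure. Its coding sequence was identical to that of its neighbour *ANAC016* at 83.1 % of aligned bases, with a longest identical run of 44 bases.

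**Figure D2:**
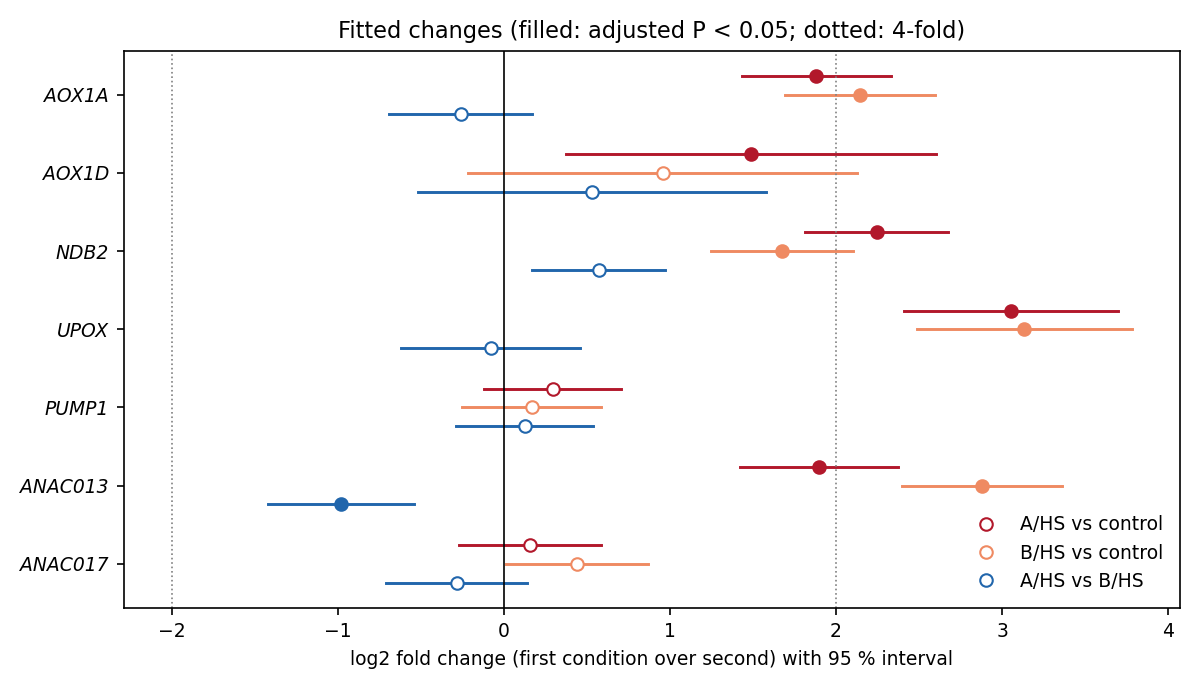
Fitted log2 fold changes (points) with 95 % intervals (lines) of the 7 tested genes for A/HS against control, B/HS against control and A/HS against B/HS, with filled points at an edgeR adjusted *P* under 0.05 and dotted lines at a 4-fold change. *UPOX* lies near 3 in both comparisons with control, and *ANAC013* (−0.98) is the only filled point between the heat treatments.

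Setting the A/HS libraries against the B/HS libraries addressed whether the heat treatments differed. Of the 7 tested genes, edgeR called 0 higher and 1 lower after A/HS (at an unadjusted *P* under 0.05, 1 higher and 1 lower; DESeq2 called 0 higher and 1 lower), while 6.25 % of all tested genes were higher and 7.63 % lower. With the 4-fold condition 0 were called, and 1.17 % of all genes were called higher. The share of all genes called lower by this rule was not counted. The gene called was *ANAC013*, at 0.508 times its B/HS level (log2 −0.98, SE 0.20, 95 % interval −1.42 to −0.54, edgeR adjusted *P* = 0.00904). Without B/HS library W3 the log2 difference was −0.94 (adjusted *P* = 0.104) and without W4 it was −1.01 (adjusted *P* = 0.0511). The call was lost in both fits while the size of the difference hardly moved, and the number of all genes called fell to 334 without W3 and 983 without W4, against 2453 in the fit with all libraries. *NDB2* went the other way, at 1.49 times its B/HS level (log2 0.57, 95 % interval 0.17 to 0.97), and did not pass (adjusted *P* = 0.0568). Its adjusted *P* was 0.0461 when every gene with at least 1 count was tested and 0.0486 when only the 4 libraries compared were fitted. The log2 differences of the other 5 genes lay between −0.28 (*ANAC017*) and 0.53 (*AOX1D*). The smallest of their adjusted *P*-values was 0.355, which does not show that they were alike.

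Levels of the 7 tested genes were compared with each other as CPM per kb of exon length. Among these 7, *AOX1A* was the highest in every condition, at 70.4 ± 5.28 CPM per kb after A/HS, 84.3 ± 8.03 after B/HS and 19.0 ± 3.30 in control (SD, n = 2 each). In control, *PUMP1* followed it at 9.10 ± 0.961 CPM per kb and *ANAC017* at 5.86 ± 0.801. *NDB2*, *ANAC013* and *UPOX*, at 3.88 ± 0.747, 3.81 ± 0.996 and 3.25 ± 1.18, could not be ordered beyond their spread. After both heat treatments *UPOX* had the second highest mean, with 28.0 ± 10.03 CPM per kb after A/HS, which was within its spread of *NDB2*, and 29.6 ± 2.17 after B/HS. *ANAC013* stood at 14.4 ± 2.20 after A/HS, below *NDB2* (18.5 ± 0.127), and at 28.4 ± 0.644 after B/HS, within the spread of *UPOX* and above *NDB2* (12.5 ± 0.743). *PUMP1* (11.1 ± 1.21 after A/HS and 10.2 ± 0.512 after B/HS) and *ANAC017* (6.56 ± 0.151 and 7.997 ± 1.39) came after these in both. *AOX1D* was the lowest of the 7 in every condition, with 2.08 ± 0.780 after A/HS, 1.45 ± 0.477 after B/HS and 0.681 ± 0.618 in control.

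The rest of the pathway was read from lists of related genes. In the family of *NDB2*, 4 of the 6 other type II NAD(P)H dehydrogenases were tested. Of these, edgeR called 0 after A/HS (0 at an unadjusted *P* under 0.05), and 1 was higher and 0 lower after B/HS, near the 20.0 % of all genes that were higher, with median log2 fold changes of 0.17 and 0.31. The gene called was the internal dehydrogenase *NDA1*, with 15.5 ± 4.85 CPM after A/HS, 20.2 ± 0.0605 after B/HS and 11.95 ± 0.145 in control (SD, n = 2 each; B/HS log2 0.75, edgeR adjusted *P* = 0.0155). In the family of *PUMP1*, all 5 other uncoupling and dicarboxylate carriers were tested, and 3 after A/HS (against 17.6 % of all genes) and 4 after B/HS (against 19.7 % of all) were lower, with 0 higher (against 18.3 and 20.0 % of all) and medians of −1.15 and −1.04. The dicarboxylate carrier *DIC2* had 0.543 ± 0.0827 CPM after A/HS, 1.83 ± 1.68 after B/HS and 14.8 ± 1.02 in control (log2 −4.75 and −2.97, edgeR adjusted *P* = 1.11e-05 and 7.92e-05). *DIC1* fell by 2.08 and *UCP2* by 1.15 on the log2 scale after A/HS, and by 1.52 and 0.93 after B/HS. *DIC3* was lower after B/HS (log2 −1.04) and not after A/HS (−0.17, adjusted *P* = 0.692).

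Of 11 other membrane-tethered NAC factors, 9 were tested. After A/HS 4 were higher (against 18.3 % of all genes) and after B/HS 3 (against 20.0 % of all), with 0 lower in both (against 17.6 and 19.7 % of all) and medians of 0.26 and 0.18. *ANAC078*, a regulator of proteasome genes, had 74.9 ± 0.307 CPM after A/HS, 111 ± 23.4 after B/HS and 24.4 ± 6.30 in control (SD, n = 2 each). This was 3.05-fold and 4.53-fold the control level (edgeR adjusted *P* = 1.54e-04 and 1.21e-05). *ANAC069* and *ANAC091* also rose after both treatments, with log2 fold changes of 1.04 and 1.15 after A/HS and 1.504 and 0.93 after B/HS. *ANAC089* rose after A/HS (log2 1.06, adjusted *P* = 0.00251) and not after B/HS (0.18, adjusted *P* = 0.579), and it was higher after A/HS than after B/HS (log2 0.89, adjusted *P* = 0.0216). *ANAC013* had the opposite order of the 2 treatments.

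Of 11 other genes of the mitochondrial dysfunction stimulon, the set that rises when mitochondria are disturbed, 9 were tested. After A/HS 4 were higher and 1 lower (against 18.3 and 17.6 % of all genes), and after B/HS 3 were higher and 2 lower (against 20.0 and 19.7 % of all), with medians of 0.84 and 0.38. The lower calls were about as frequent as among all genes. *HSP23.5*, a small heat shock protein of mitochondria, had 558 ± 148 CPM after A/HS, 1154 ± 241 after B/HS and 80.9 ± 35.3 in control (SD, n = 2 each), and was lower after A/HS than after B/HS (log2 −1.05, edgeR adjusted *P* = 0.0444). *AT12CYS-2* (AT5G09570) was 8.32-fold and AT2G41730 2.48-fold higher than in control after A/HS, and 4.44-fold and 5.82-fold higher after B/HS. *OM66*, an AAA-type ATPase of the outer mitochondrial membrane and a standard member of this set, went the other way. It had 2.94 ± 0.643 CPM after A/HS, 5.90 ± 0.793 after B/HS and 12.7 ± 1.68 in control (log2 −2.10 and −1.10, adjusted *P* = 4.15e-05 and 0.00245).

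Of 7 other regulators of mitochondrial retrograde signalling, 6 were tested. After A/HS 3 were higher and 2 lower (against 18.3 and 17.6 % of all genes), and after B/HS 2 were higher and 2 lower (against 20.0 and 19.7 % of all), with medians of 0.38 and −0.09. *WRKY40*, a repressor of *AOX1A*, had 1.84 ± 1.12 CPM after A/HS, 1.11 ± 0.406 after B/HS and 8.08 ± 0.213 in control (log2 −2.12 and −2.84, edgeR adjusted *P* = 6.11e-04 and 1.06e-04). *MYB29*, a negative regulator of the same response, was lower as well (log2 −1.31 and −2.81). *RCD1*, a nuclear protein that binds ANAC013 and restrains it, had 263 ± 42.3 CPM after A/HS, 262 ± 1.16 after B/HS and 60.6 ± 15.9 in control, about 4.33-fold and 4.32-fold the control level (adjusted *P* = 2.86e-05 and 1.98e-05). *CDKE1*, a Mediator kinase needed for *AOX1A* induction, rose by 0.71 after A/HS and 1.39 after B/HS on the log2 scale.

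Nuclear genes of the remaining respiratory chain, from complexes I to IV and cytochrome *c*, and of ATP synthase were read for comparison. Only complexes III and IV and cytochrome *c* lie on the route that alternative oxidase bypasses. All 16 were tested, and 10 were higher after A/HS (against 18.3 % of all genes) and 7 after B/HS (against 20.0 % of all), with 0 lower (against 17.6 and 19.7 % of all) and medians of 0.59 and 0.39. Cytochrome *c* gene *CYTC-2* had 86.7 ± 22.8 CPM after A/HS, 150 ± 19.3 after B/HS and 23.51 ± 5.67 in control (SD, n = 2 each; log2 1.88 and 2.67, edgeR adjusted *P* = 8.18e-05 and 5.37e-06). The iron-sulphur subunits of complex II, *SDH2-1* and *SDH2-2*, rose 2.79-fold and 2.38-fold after A/HS and 3.09-fold and 3.16-fold after B/HS. *UCR1-2*, the Rieske subunit of complex III, rose 2.27-fold after A/HS and 1.72-fold after B/HS. The medians of this list were nearer to 0 than those of the 7 genes above, a difference that was not tested.

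**Figure D3:**
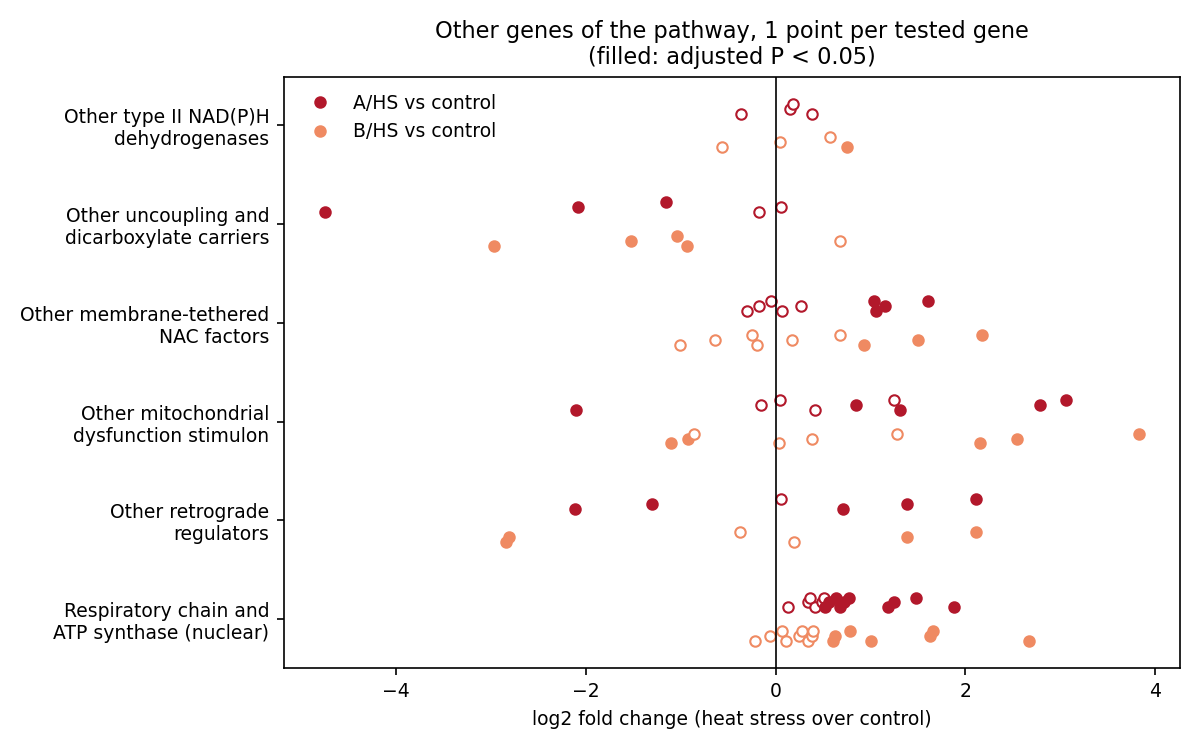
Log2 fold changes against control after A/HS (dark red, upper row of each list) and B/HS (orange, lower row) for the tested genes of 6 related lists, with filled points at an edgeR adjusted *P* under 0.05. The called uncoupling and dicarboxylate carriers all lie below 0 (lowest *DIC2*, −4.75 after A/HS), the called respiratory chain and ATP synthase genes all lie above 0, and the stimulon and regulator lists hold called genes on both sides.

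The genes most like *AOX1A* and *UPOX* were ranked by Pearson's r of log2 CPM over the 6 *A. thaliana* libraries among 6209 tested genes with a mean of at least 10 CPM. For *AOX1A* the first 5 were *TPR2* (AT1G04130), AT4G39520, AT3G10113, *APX2* (AT3G09640), a cytosolic ascorbate peroxidase of the heat response, and *iPGAM2* (AT3G08590). For *UPOX* they were the thioredoxin-dependent peroxidase *TPX1* (AT1G65980), *VHA-E3* (AT1G64200), AT4G29905, AT2G37110 and AT5G57100. All 10 coefficients were at least 0.998. The libraries fall into control and heat-stressed ones, so the coefficients mostly describe that 1 separation, and no test was made.

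For *B. depauperata*, the study's supplement gives 1693 identifier pairs, a partial list beside the 27416 genes counted in this species. These pairs link 1 of the 8 genes, *NDB2*, to a *B. stricta* gene, Bostr.2983s0045. Within them it had 1 partner in each direction, which does not show that no other copy exists. Partners of the other genes were not looked for. The plants had the same 3 treatments, with 2 libraries each. Bostr.2983s0045 had 34.5 and 33.4 CPM after A/HS, 48.6 and 39.8 CPM after B/HS, and 17.2 and 31.4 CPM in control. The heat-stressed libraries were all above the controls, but the 2 control libraries differed widely and the higher one lay just below the A/HS libraries. Neither comparison passed over the 17839 genes tested in this species. The log2 fold change was 0.48 after A/HS (SE 0.33, 95 % interval −0.27 to 1.23, edgeR adjusted *P* = 0.338) and 0.86 after B/HS (SE 0.32, 0.12 to 1.60, adjusted *P* = 0.147). Among all genes tested in this species, 10.1 % were higher after A/HS and 4.84 % after B/HS. The species were counted on different gene sets and fitted apart, so their difference was not tested, and levels are not compared between them.

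**Figure D4:**
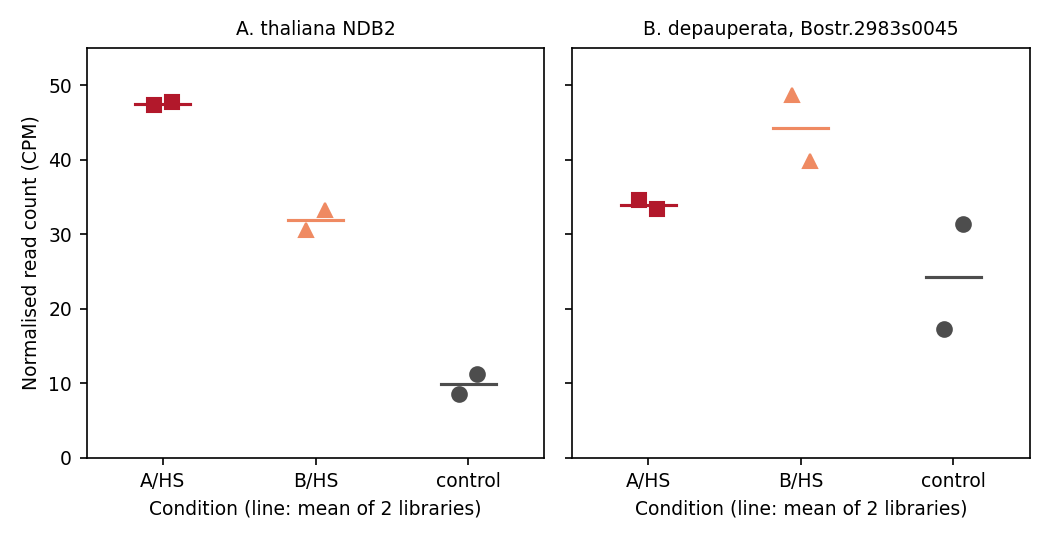
Normalised read counts (CPM) of *NDB2* in *A. thaliana* (left) and of its paired gene in *B. depauperata* (right) in the A/HS, B/HS and control libraries, with 1 symbol per library and a line at the mean of 2. In *A. thaliana* the 3 conditions are separate with A/HS highest at 47.3 and 47.7 CPM, and in *B. depauperata* the control libraries, at 17.2 and 31.4 CPM, are far apart. The panels were normalised separately.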

How the data were processed

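The data were RNA-seq read counts per gene. According to the study's methods, the authors trimmed reads with fastx toolkit and aligned them with TopHat (1.4.1 in the submitters' processing notes). The reference was TAIR10 for *A. thaliana*. For *B. depauperata* the methods name both its own transcriptome and the *B. stricta* genome, and the counts carry *B. stricta* identifiers. The deposited counts were treated here as raw and not normalised. The counting program and its handling of strand and of reads with several matches are not given in the sources used here. The 2 libraries of a condition are stated to be biological replicates and differed by more than sampling noise (chi-square per degree of freedom 29.2 for A/HS, 8.44 for B/HS and 35.0 for control). These values used raw counts of nuclear and organelle genes together. They thus include differences in organelle share, such as 74.9 % in W1 against 62.7 % in W2, and are not the spread of the nuclear genes alone.

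Each species was fitted on its own in R 4.3.3 with edgeR 4.0.16 (filterByExpr, TMM, glmQLFit, glmQLFTest). The dispersion of each gene was estimated over all 6 libraries of the species together. A standard error was the absolute log2 fold change over the square root of F. An exact permutation test of 2 libraries against 2 cannot go below *P* = 0.333, so calls rest on the spread estimated across genes. DESeq2 1.42.0, which the authors used, was an alternative, as were another normalisation (RLE), no low-count filter, only the 4 libraries compared, removal of organelle genes, the 4-fold rule and each library left out. The scripts were tested on simulated data.

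The genes and lists were chosen with earlier results of these data known. From each list up to 4 genes were named, those with the largest change against control among the called genes. Sequences came from the RefSeq genome and annotation of TAIR10.1, in place of a table of promoters that was planned for.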

Additional observations from a re-analysis of the deposited data

How the results depend on the processing

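*AOX1A*, *NDB2*, *UPOX* and *ANAC013* kept an adjusted *P* under 0.05 against control in all 11 alternative fits of each comparison. Their log2 fold changes ranged from 1.73 to 2.04, 2.08 to 2.43, 2.65 to 3.49 and 1.68 to 2.18 after A/HS, and from 1.997 to 2.29, 1.52 to 1.85, 2.87 to 3.56 and 2.67 to 3.15 after B/HS. *PUMP1* and *ANAC017* passed in none of them. With the 4-fold rule added, 2 genes in place of 5 were called after A/HS (*AOX1A*, *ANAC013* and *AOX1D* dropped out), 3 in place of 4 after B/HS (*NDB2* dropped out), and 0 in place of 1 for A/HS against B/HS. In that last comparison the number was 2 without the low-count filter and 2 with only the 4 libraries compared, *NDB2* joining *ANAC013*, and it ran from 0 to 1 with 1 library left out. Where that left 1 library in a condition, it was assumed to vary like the others. The sign of *UPOX* for A/HS against B/HS turned without B/HS library W3 (0.01) and without A/HS library W5 (0.24), over a range of −0.50 to 0.24 with 1 library left out. The call of *AOX1D* after A/HS was also lost with DESeq2 (log2 1.53, adjusted *P* = 0.0528), and its log2 fold change was 3.02 in the highest alternative, so its size is poorly fixed at 4 to 58 counts per library. The *NDB2* partner in *B. depauperata* kept its direction and missed the threshold in all 9 alternatives (log2 0.08 to 0.99 after A/HS and 0.48 to 1.37 after B/HS). No paired analysis was possible because the labels give no replicate numbers that the conditions share.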
